A study of Mus musculus with 36 samples.

Results

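The genes described here build peptide-loaded major histocompatibility complex (MHC) class I molecules in mouse cells. They were taken from a list of 10 names, H2-K1, H2-D1, B2m, Tap1, Tap2, Tapbp, Psmb8, Psmb9, Psmb10 and Nlrc5, and 9 of them had a row among the 37417 genes of the count table. Psmb9 was not analysed here. All values are CPM, the counts of a gene per 1000000 reads assigned to any gene of the same library, in 36 tumour libraries.

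A class I molecule consists of a heavy chain (H2-K1 and H2-D1 encode the K and D heavy chains), the light chain beta-2 microglobulin (B2m) and a short peptide. The peptide is cut by the proteasome, whose catalytic subunits are replaced by Psmb8, Psmb9 and Psmb10 in the immunoproteasome, is pumped into the endoplasmic reticulum by the transporter of Tap1 and Tap2, and is fitted to the heavy chain with the help of tapasin (Tapbp). Interferon gamma, secreted mainly by T cells and NK cells and encoded by Ifng, is known to raise all of these genes, and Nlrc5 is a transactivator of class I promoters. CD8+ T cells recognise tumour cells through these molecules.

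The libraries came from subcutaneous tumours of wild type mice aged 12 weeks. According to the labels, MC38 (a mouse colon carcinoma line) and PancO2 (a mouse pancreatic cancer line) were grown in C57BL/6J mice and CT26 (a mouse colon carcinoma line) in BALB/c mice. Mice received 10 mg/kg of anti-PD-1, of anti-CTLA4 or of control IgG from rat serum, both antibodies being immune checkpoint blockers, which gave 9 groups of 4 libraries, 1 tumour each, collected at the end stage. Whole tumours were used, so that each value mixes cancer cells with host cells, and fewer cells of a type cannot be told apart from less RNA per cell.

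The libraries did not sort by their labels. They were therefore described in 3 classes set by a pair of genes outside the list. H2-Ea-ps, the MHC class II E alpha gene, is silent in the H-2b haplotype of C57BL/6 and active in the H-2d haplotype of BALB/c, and Cp encodes ceruloplasmin. The H2-Ea-ps class held 12 libraries with more than 10 CPM of that gene (32.8 to 134 CPM, against at most 0.0845 CPM elsewhere), the Cp class 12 libraries with more than 1000 CPM of Cp (lowest 1389 CPM, against at most 611 CPM outside it), and the neither class the other 12. Each of the 9 labelled groups fell into more than 1 class, and in 16 libraries H2-Ea-ps contradicted the labelled strain: 8 labelled MC38 or PancO2 had H2-Ea-ps, and 8 labelled CT26 lacked it. The Cp class held 4 libraries labelled MC38, 3 CT26 and 5 PancO2, the H2-Ea-ps class 4 of each, and the neither class 4 MC38, 5 CT26 and 3 PancO2. Since the classes were set from measured genes, levels by class are given as a description, with no test.

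Library totals ran from 7883106 to 41751023 counts. The lowest total belonged to the library labelled PancO2 anti-PD-1 71, of the H2-Ea-ps class, which stood apart: mitochondrial genes took 15.7% of its counts, against 2.80% to 4.35% in the other 35 libraries, and 86.5% of its reads were in no gene, against 44.8% to 63.4%. Results of the H2-Ea-ps class are given with and without it.

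The heavy chains present the peptide to T cells. H2-K1 (chr17:33996017-34000347, GRCm38, minus strand) ran from 1259.7 CPM to 3308 CPM in the Cp class with a median of 2061 CPM. Its range was 295 to 752 CPM in the H2-Ea-ps class, with a median of 656 CPM, and 550.1 to 1512 CPM in the neither class, with a median of 1020.3 CPM. The Cp and H2-Ea-ps classes did not overlap for H2-K1, and the ratio of their medians was 3.14, while both overlapped with the neither class.

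H2-D1 (chr17:35262730-35267499, plus strand) was ordered differently. It lay between 989 and 2468 CPM in the Cp class, with a median of 1716 CPM. The H2-Ea-ps class ran from 778 to 1610.0 CPM with a median of 1385 CPM, and without PancO2 anti-PD-1 71 its lowest library was at 1183 CPM. The neither class had the lowest values, from 539 to 1152 CPM with a median of 857 CPM. The ratio of medians between the H2-Ea-ps and neither classes was 1.62 for H2-D1 and 0.643 for H2-K1. Both genes overlapped between those classes with all libraries, and without PancO2 anti-PD-1 71 the H2-Ea-ps class was above the neither class in every library for H2-D1.

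The ratio of H2-K1 to H2-D1 within a library set the H2-Ea-ps class apart from both others. It was between 0.455 and 0.485 in 11 libraries of the H2-Ea-ps class and 0.379 in PancO2 anti-PD-1 71. In the neither class it ran from 1.02 to 1.31 with a median of 1.2, and in the Cp class from 0.914 to 1.37 with a median of 1.28. PancO2 IgG 48 was the lowest of the Cp class at 0.914, with the next library at 1.19. Reads were mapped to the C57BL/6 reference and reads with several positions were discarded, and the heavy chain genes have close copies and differ between haplotypes, so that how much of this ratio comes from mapping was not tested.

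B2m (chr2:122147686-122153083, plus strand) was the most abundant of the 9 genes. The Cp class ran from 2162 to 4843 CPM with a median of 3199 CPM, and every library of it was above all 12 of the neither class, which ran from 843 to 1976 CPM with a median of 1379 CPM. The H2-Ea-ps class had a median of 1836 CPM and ran from 1638 to 3463 CPM, the latter in PancO2 anti-PD-1 71, where 7 of the other 8 genes had their lowest value of the class. Without that library its highest value was 2063 CPM, so that the Cp class, with its lowest library at 2162 CPM, was above it in every library.

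**Figure D1:**
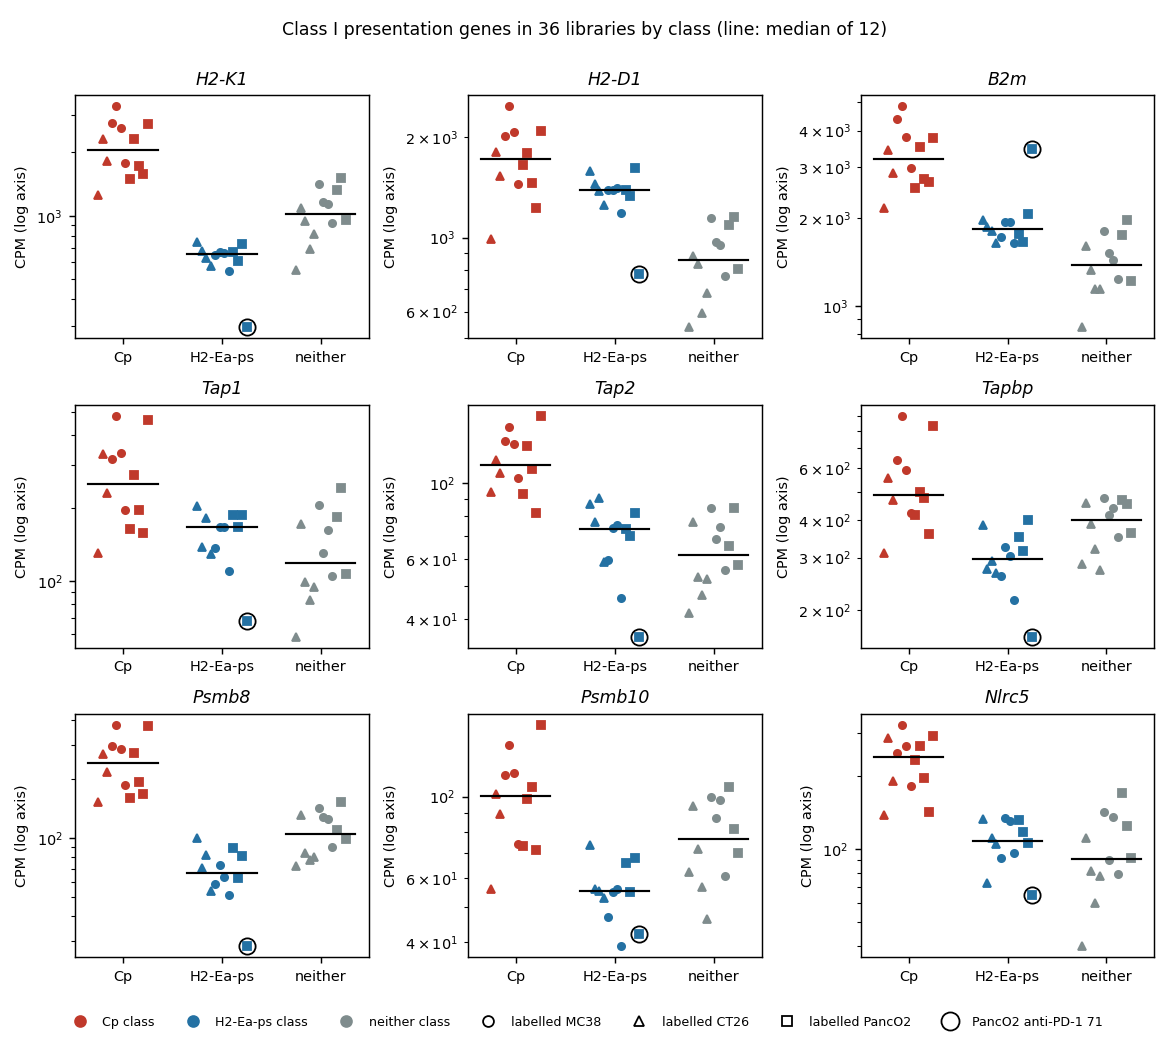
Each panel shows the CPM of a gene, on a log axis, in the 36 libraries by class; a point is a library, its shape the labelled tumour model, and the line the median of 12. The Cp class is highest by median for every gene, and the ringed library PancO2 anti-PD-1 71 is low for H2-K1 (295 CPM) and high for B2m (3463 CPM).

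Promoters of the heavy and light chains are shown because class I genes are known for a shared upstream module that Nlrc5 acts on, and that of Tap1 because this gene had the steepest slope of the 9 on Ifng in the Cp and neither classes, below. RefSeq windows of GRCm38.p6, 250 bases before to 50 after a start site, were found for 8 of the 10 genes, in 9 windows; Tap2 and Nlrc5 had none. A set of 5 motifs was searched on both strands: a pair of GAAA with any 2 bases between them and GAANNGAAA, both forms of interferon-stimulated response elements (in 3.44% and 7.52% of all 32851 promoter windows), TTCNNNGAA, the gamma-activated site (8.30%), and TGACG and CCAAT, the cores of the X2 and Y boxes (20.8% and 37.4%). Matches are printed in capitals, 5′ to 3′ on the strand of the gene. The windows are chr17:34000284-34000583 for H2-K1 (minus strand), chr17:35262844-35263143 for H2-D1 (plus), chr2:122147437-122147736 for B2m (plus) and chr17:34187306-34187605 for Tap1 (plus).
H2-K1: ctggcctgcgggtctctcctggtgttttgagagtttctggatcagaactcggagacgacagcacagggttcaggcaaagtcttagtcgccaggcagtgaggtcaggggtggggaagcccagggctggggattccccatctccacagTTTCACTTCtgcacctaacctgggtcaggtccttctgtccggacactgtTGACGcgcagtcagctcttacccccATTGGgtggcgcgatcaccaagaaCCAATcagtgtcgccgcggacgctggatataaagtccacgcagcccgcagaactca
H2-D1: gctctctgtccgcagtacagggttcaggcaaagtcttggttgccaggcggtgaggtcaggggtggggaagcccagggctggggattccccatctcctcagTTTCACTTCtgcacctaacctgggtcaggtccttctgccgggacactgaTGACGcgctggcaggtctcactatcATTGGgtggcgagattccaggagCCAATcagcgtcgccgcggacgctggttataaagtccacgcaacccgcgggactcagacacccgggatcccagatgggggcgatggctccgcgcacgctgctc
B2m: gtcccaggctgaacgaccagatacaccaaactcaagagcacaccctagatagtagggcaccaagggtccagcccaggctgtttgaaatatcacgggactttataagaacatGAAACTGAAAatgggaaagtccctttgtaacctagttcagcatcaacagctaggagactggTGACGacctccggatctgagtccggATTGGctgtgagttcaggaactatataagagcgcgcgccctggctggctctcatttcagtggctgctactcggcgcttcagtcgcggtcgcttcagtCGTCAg
Tap1: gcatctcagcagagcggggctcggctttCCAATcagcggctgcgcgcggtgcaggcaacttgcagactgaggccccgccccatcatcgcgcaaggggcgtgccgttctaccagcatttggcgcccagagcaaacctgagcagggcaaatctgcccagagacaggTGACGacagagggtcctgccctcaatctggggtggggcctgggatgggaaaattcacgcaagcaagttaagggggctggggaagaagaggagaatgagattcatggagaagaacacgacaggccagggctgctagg
H2-K1 and H2-D1 share TTTCACTTC, which is GAANNGAAA on the other strand, and B2m holds GAAACTGAAA. In all 3 windows TGACG is followed, after 20 bases, by ATTGG, which is CCAAT on the other strand. This spacing was searched after these windows had been seen. It occurs in 31 of the 32851 windows (0.0944%), among them those of H2-M3 and of 3 of the 8 listed genes. The Tap1 window holds CCAAT and TGACG in the other order and none of the interferon motifs, and it overlaps the window of Psmb9, which is read from the opposite strand. Psmb8 holds TTCCCAGAA, a match to TTCNNNGAA, Tapbp holds a pair of CCAAT matches, and Psmb10 none of the 5 motifs.

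Transporter and tapasin genes are given next. Tap1 (chr17:34187553-34197225), an ATP-driven subunit of the peptide pump, ran from 129.9 to 480.5 CPM in the Cp class (median 251 CPM), from 68.1 to 203 CPM in the H2-Ea-ps class (median 167 CPM) and from 58.7 to 241 CPM in the neither class (median 118 CPM). Its partner Tap2 (chr17:34203527-34216321) had medians of 113, 73.4 and 61.4 CPM, and Tapbp (chr17:33915899-33929292) of 488, 298 and 402 CPM. All 3 genes overlapped in each pair of classes. Tapbp shares 149 exon bases with Zbtb22, whose median was 32.3 CPM, and Tap1 shares 212 with Psmb9; whether counting used strand is not given in the sources used here.

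Immunoproteasome subunits followed. Psmb8 (chr17:34197721-34201454), the beta5i subunit, was at 153 to 378 CPM in the Cp class, with a median of 243 CPM. It was at 28.2 to 100.2 CPM in the H2-Ea-ps class (median 66.7 CPM) and at 72.5 to 152.9 CPM in the neither class (median 105 CPM), so that the lowest library of the Cp class was above every library of both others. By medians the Cp class was 3.65 times the H2-Ea-ps class and 2.32 times the neither class, although the gap to the neither class was as narrow as 153.1 against 152.9 CPM and closed once library sizes were scaled. Psmb10 (chr8:105935735-105938444), the beta2i subunit, overlapped in every pair, with medians of 100.3, 55.1 and 76.8 CPM.

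Of the constitutive subunits that these replace, Psmb5 and Psmb7 overlapped in every pair of classes and Psmb6 did not. Psmb5, replaced by Psmb8, had medians of 52.2, 50.2 and 51.7 CPM, and Psmb7, replaced by Psmb10, of 125, 112 and 122 CPM in the Cp, H2-Ea-ps and neither classes. Psmb6, which Psmb9 replaces, had a median of 62 CPM in the H2-Ea-ps class, 114 CPM in the Cp class and 122 CPM in the neither class, and the H2-Ea-ps class lay below both without overlap. Per kilobase of exon, the ratio of Psmb8 to Psmb5 had a median of 1.24 in the Cp class (0.815 to 1.77), 0.348 in the H2-Ea-ps class (0.286 to 0.472) and 0.558 in the neither class (0.3 to 0.878). The Cp and H2-Ea-ps classes did not overlap in this ratio. For Psmb10 to Psmb7 the medians were 1.60, 0.995 and 1.21, and all classes overlapped.

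**Figure D2:**
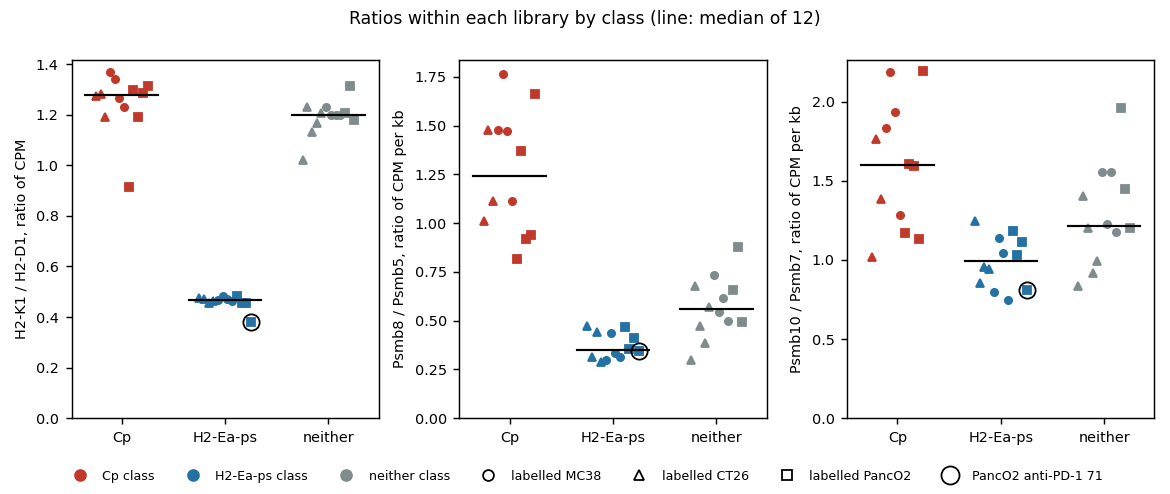
Ratios of gene levels within each library are plotted by class, as CPM for H2-K1 to H2-D1 and as CPM per kilobase of exon for the proteasome subunits; the line is the median of 12 libraries. H2-K1 to H2-D1 is at most 0.485 in the H2-Ea-ps class and at or above 0.914 in the others, and Psmb8 to Psmb5 is highest in the Cp class, with a median of 1.24.

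Nlrc5 (chr8:94434356-94527272), the class I transactivator, ran from 138 to 324 CPM in the Cp class (median 241 CPM) and from 64.7 to 135 CPM in the H2-Ea-ps class (median 108 CPM), with no overlap. The neither class ran from 39.9 to 170.1 CPM with a median of 91.4 CPM, and its lowest library, CT26 IgG 24, had the lowest value of all 36.

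Counted over the 9 genes, the Cp class was higher by median than the H2-Ea-ps class for 9 and without overlap for 3 (H2-K1, Psmb8 and Nlrc5; Nlrc5 overlapped once libraries were scaled by TMM); among 14125 genes with a mean of at least 1 CPM, 19.5% were higher without overlap and 12.2% lower. Against the neither class the Cp class was higher by median for 9 genes and without overlap for 2 (B2m and Psmb8), where the background was 14.7% higher and 16% lower. Between the H2-Ea-ps and neither classes 5 genes were higher and 4 lower by median and 0 were without overlap, against 9.13% higher and 17.7% lower. With 9 genes these counts do not set the list apart from the background. Their median log2 ratio was 0.80 for Cp against H2-Ea-ps, 1.01 for Cp against neither and 0.25 for H2-Ea-ps against neither, where the medians over all genes were 0.07, -0.03 and -0.09. No gene of the 9 changed the direction of its median ratio in any pair when libraries were scaled by TMM or by DESeq2 size factors.

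Among markers of cell types, the epithelial sum set the classes apart, and the other levels given here overlapped between them. Summed levels of 5 epithelial markers (Epcam, Cdh1, Krt8, Krt18 and Krt19, all with a row) ran from 577 to 1186 CPM in the Cp class, 8.80 to 43.7 CPM in the H2-Ea-ps class and 64.4 to 430.4 CPM in the neither class. The sum of 7 T cell markers ran from 48.9 to 156.5 CPM, 18.9 to 49.3 CPM and 5.44 to 97.7 CPM, and that of 5 macrophage markers from 654 to 1067 CPM, 511 to 1055 CPM and 992 to 1697 CPM. Ptprc, which encodes CD45 of all leukocytes, overlapped between the classes at 89.1 to 186, 65.8 to 151 and 92.2 to 204 CPM. No marker of these lists was at 0 throughout a class. Their part in the class levels of the 9 genes was not tested.

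Levels were compared between genes per kilobase of exon. B2m led in every class, with medians of 3719, 2135 and 1604 CPM per kilobase in the Cp, H2-Ea-ps and neither classes, and did not overlap with the gene after it. H2-K1 and H2-D1 came next, at 702 and 665 CPM per kilobase in the Cp class and 347 and 332 in the neither class, where their ranges overlapped. In the H2-Ea-ps class H2-D1 (537) was above H2-K1 (223) without overlap. Tapbp came after the heavy chains in each class, with 134, 82.1 and 111 CPM per kilobase. Psmb8, Psmb10, Tap1, Tap2 and Nlrc5 followed, each overlapping with its neighbour in the order, and Nlrc5 was last in all 3 classes, at 28.4, 12.8 and 10.8 CPM per kilobase.

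Ifng itself was rare and overlapped between classes. It had a median of 1.76 CPM in the Cp class (0.219 to 4.07 CPM, 4 to 170 counts), 1.14 CPM in the H2-Ea-ps class (0.299 to 1.99 CPM, 4 to 56 counts) and 0.547 CPM in the neither class (0 to 2.60 CPM, 0 to 80 counts). CT26 anti-PD-1 40 had 0 counts of Ifng, and 4 other libraries had 3 or 4. Counting error is therefore large at the low end of this axis. Slopes below are log2 changes of a gene per doubling of Ifng (log2 CPM, prior count 2), fitted on the raw counts of all genes in the 12 libraries of a class with the edgeR quasi-likelihood test. A call needed an adjusted p under 0.05 over all genes tested. Ifng and the other genes were read from the same libraries, and mice were not assigned to levels of Ifng.

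Within the Cp class all 9 genes rose with Ifng. Tap1 had the steepest slope of the 9, 0.52 ± 0.06 (SE, n = 12, edgeR adjusted p = 0.000138), which is 1.44-fold per doubling. Tapbp followed at 0.39 ± 0.05, and Psmb8, Psmb10, H2-K1, Nlrc5 and H2-D1 lay between 0.33 and 0.38. B2m had 0.28 ± 0.05 and Tap2 the lowest slope, 0.23 ± 0.04 (edgeR adjusted p = 0.00336). The library with the most Ifng, PancO2 anti-PD-1 70 at 4.07 CPM, had 462 CPM of Tap1, and that with the least, CT26 IgG 28 at 0.219 CPM, had 129.9 CPM, the lowest of the class. Of 16594 genes tested 1134, or 6.83%, rose with Ifng and 654 fell. The median slope was 0.36 over the 9 genes and -0.0045 over all genes. The 9 calls stood in each of the 12 fits that left out a library.

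All 9 genes rose with Ifng in the neither class too, where 322 of 16346 genes, 1.97%, rose and 29 fell. Tap1 again had the steepest slope, 0.34 ± 0.05 (edgeR adjusted p = 0.00228), followed by Nlrc5 at 0.31 ± 0.05. H2-K1 had 0.24 ± 0.04, H2-D1 0.21 ± 0.03, Psmb8 0.22 ± 0.03, Psmb10 0.20 ± 0.03, Tap2 0.20 ± 0.03 and B2m 0.18 ± 0.04. Tapbp was lowest at 0.15 ± 0.03 (edgeR adjusted p = 0.00570). The median was 0.21 over the 9 genes and -0.0035 over all genes. Without the 3 libraries that had fewer than 5 counts of Ifng, an alternative chosen after seeing the data, the slopes of the 9 genes were between 0.13 and 0.40, with Tap1 at 0.40 ± 0.07 and H2-K1 at 0.22 ± 0.05. Over these 9 libraries 2 of the 9 genes were called by edgeR, Tap1 and Tap2. All 9 had an unadjusted p under 0.05, as did 1168 of 16135 genes in all. The calls among all genes went from 351 to 147.

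None of the 9 genes was called in the H2-Ea-ps class by edgeR, where 8 of 16254 genes, 0.0492%, rose with Ifng and 0 fell. Their slopes were all above 0, from 0.13 ± 0.10 for H2-D1 to 0.32 ± 0.15 for Psmb8, with a median of 0.28 against -0.00082 over all genes. Psmb10 had the smallest adjusted p, 0.398 (slope 0.30 ± 0.07). Of the 9 genes 3 had an unadjusted p under 0.05, as did 469 of the 16254 genes in all. DESeq2 called 1 gene, Psmb10, and limma-voom 0. The class had the narrowest range of Ifng, and the library PancO2 anti-PD-1 71 lay below the others for 7 of the 9 genes at 1.27 CPM of Ifng. Without it 3 genes were called, Psmb10 (0.31 ± 0.05, edgeR adjusted p = 0.0133), Tapbp (0.32 ± 0.05, 0.0202) and Tap1 (0.32 ± 0.06, 0.0257), and 45 genes in all.

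**Figure D3:**
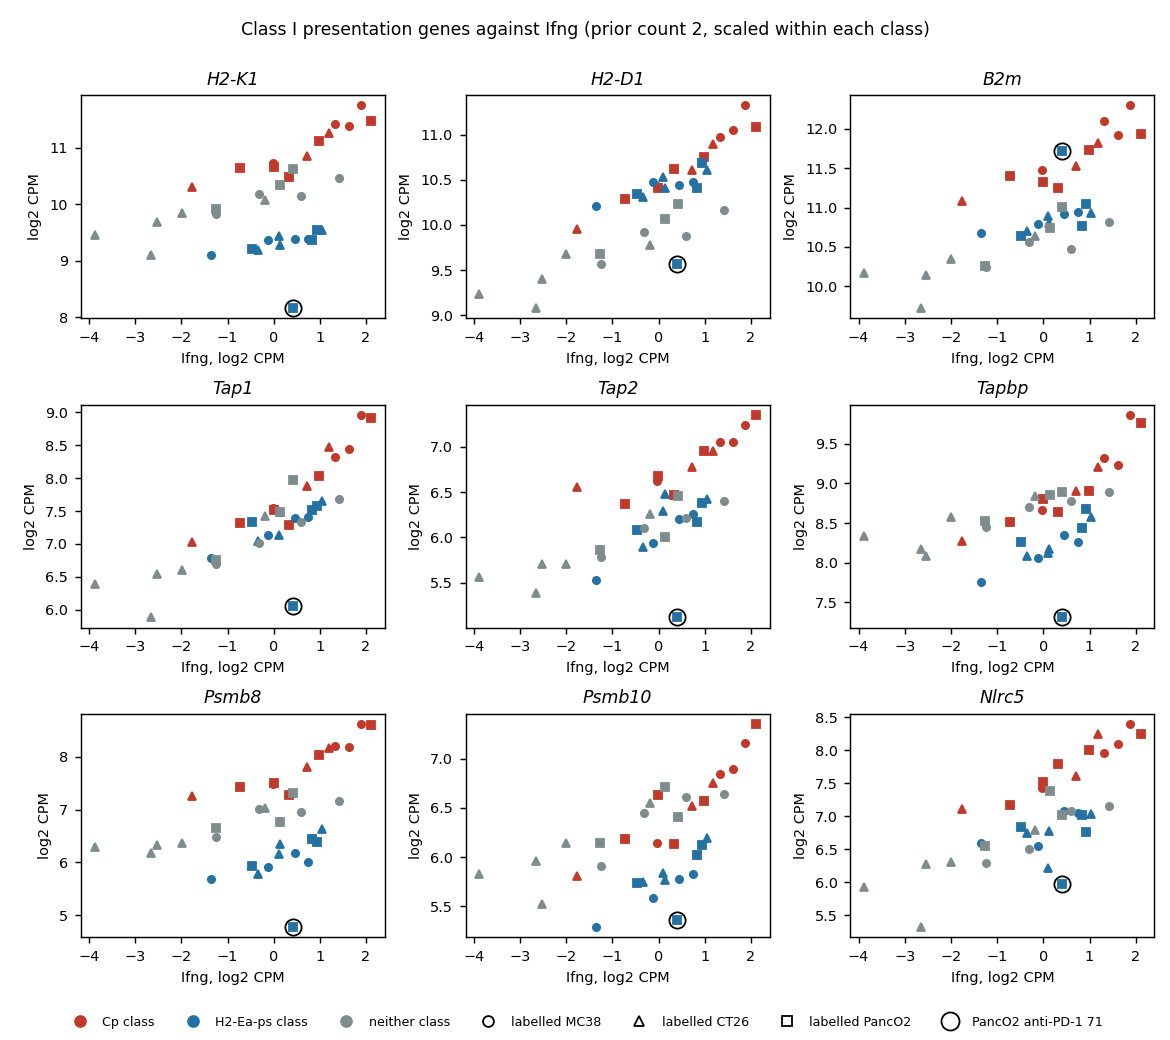
Each panel plots the log2 CPM of a gene against that of Ifng (both with a prior count of 2 and library sizes scaled by TMM within the class); a point is a library, its colour the class and its shape the labelled model. The points of the Cp and neither classes climb from left to right in all 9 panels, and the ringed library PancO2 anti-PD-1 71 lies off the H2-Ea-ps points, below them for H2-K1 and above them for B2m.

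The same relation was read as a correlation of log2 values, with permutations of the libraries within a class and adjustment over all genes. In the Cp class Pearson's r ran from 0.875 for Tap2 to 0.973 for H2-D1 (n = 12, permutation p = 1e-05 for H2-D1, the smallest that 100000 permutations can give, adjusted p = 0.00319), and 9 genes passed, where 1345 of 16594 genes, 8.11%, did in either direction. Spearman's rho ran from 0.902 for B2m to 0.979 for H2-D1, and 9 genes passed again. Without CT26 IgG 28 and PancO2 anti-PD-1 68, the libraries farthest from the median of Ifng, 9 genes passed by Pearson's r. The neither class gave r from 0.818 for B2m to 0.910 for H2-D1; 8 genes passed, of 251 among 16346 genes, 1.54%, and B2m did not (permutation p = 0.00108, adjusted p = 0.0631). Spearman's rho was between 0.853 for Psmb10 and 0.930 for Tap1 there, and 8 genes passed. Without CT26 anti-PD-1 40 and MC38 IgG 2, its farthest libraries, r ran from 0.855 to 0.923 and 2 genes passed, of 53 in all. Spearman's rho then ran from 0.806 for Psmb10 to 0.915 for Tap1, and 0 of the 9 passed. For the H2-Ea-ps class r ran from 0.234 for H2-K1 to 0.750 for Psmb10 and 0 of the 9 passed, as did 0% of 16254 genes, with 1 of the 9 at an unadjusted permutation p under 0.05. By rank the relation was closer: Spearman's rho ran from 0.490 for Nlrc5 to 0.818 for Psmb10 over the same 12 libraries, and 8 of the 9 genes had an unadjusted permutation p under 0.05, 0 after adjustment. Without MC38 anti-PD-1 16 and CT26 IgG 27, its farthest libraries, the median r of the 9 genes went from 0.416 to 0.221. Without PancO2 anti-PD-1 71 that median was 0.839, with 8 genes at an unadjusted permutation p under 0.05 and 0 after adjustment. How many of all genes reached an unadjusted permutation p under 0.05 was not counted.

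Whether the slopes differed between classes was tested in 1 fit of all 36 libraries. An F test called 32 of 19037 genes, 0.168%, and 0 of the 9 (edgeR). An unadjusted p under 0.05 was found for 1438 genes. Among them were 2 of the 9, Tapbp (edgeR adjusted p = 0.312) and Psmb10 (edgeR adjusted p = 0.631). DESeq2 and limma-voom called 0 of the 9. The slope of Tapbp was higher by 0.24 ± 0.07 in the Cp class than in the neither class (edgeR adjusted p = 0.123), and that of Psmb10 by 0.16 ± 0.06 (adjusted p = 0.288). The calls in the Cp and neither classes but not in the H2-Ea-ps class thus came without a detected difference in slope. Without PancO2 anti-PD-1 71 Tapbp was called (edgeR adjusted p = 0.0313), among 210 genes.

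**Figure D4:**
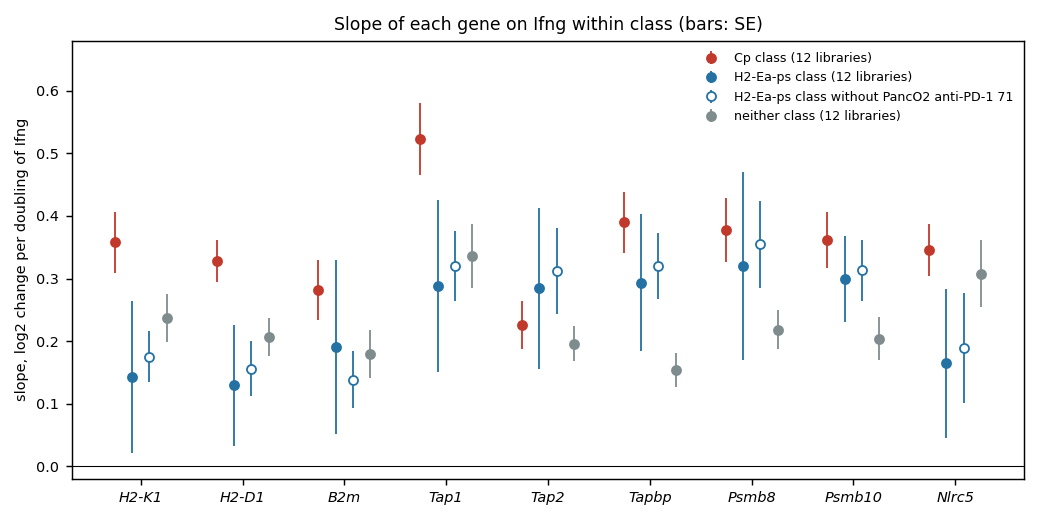
Slopes of the 9 genes on Ifng (log2 change per doubling) are shown within each class, with SE as bars; filled points use 12 libraries, and open points the H2-Ea-ps class without PancO2 anti-PD-1 71. Every slope is above 0, the highest is Tap1 in the Cp class at 0.52, and the bars of the H2-Ea-ps class shorten once that library is left out.

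Some markers of leukocytes and of other cell types moved with Ifng in the same libraries, and others did not. Ptprc had r = 0.790 with Ifng in the Cp class, 0.830 in the neither class and 0.0667 in the H2-Ea-ps class (n = 12 each, log2 CPM). For the 7 T cell markers, all with a row, the sum gave r = 0.5 in the Cp class, 0.896 in the neither class and 0.818 in the H2-Ea-ps class, and for the 4 NK cell markers, all with a row, 0.875, 0.636 and 0.623. NK cell sums ran from 7.02 to 27.8 CPM in the Cp class, 11 to 38.5 CPM in the neither class and 13.1 to 30.2 CPM in the H2-Ea-ps class. In the same order of classes, macrophage sums gave r = 0.455, -0.273 and -0.592, and B cell sums -0.025, 0.190 and -0.0532. Neutrophil sums gave 0.0555, 0.434 and 0.517, and dendritic cell sums 0.0347, 0.724 and 0.242. Outside leukocytes, fibroblast sums gave -0.71, 0.17 and -0.12, endothelial sums -0.80, -0.63 and -0.43, and epithelial sums 0.54, -0.41 and 0.07. Without PancO2 anti-PD-1 71, r in the H2-Ea-ps class was 0.07 for Ptprc, 0.84 for T cell, 0.62 for NK cell and -0.59 for macrophage sums. It was -0.40 for B cell, 0.67 for neutrophil, 0.46 for dendritic cell, -0.07 for fibroblast, -0.49 for endothelial and 0.02 for epithelial sums. With Ptprc as a further term 5 genes were still called in the Cp class, Psmb10, Tap1, H2-D1, Nlrc5 and Tapbp, with Psmb10 at 0.45 ± 0.08 (edgeR adjusted p = 0.0207), and B2m went from 0.28 to 0.15 ± 0.08 (adjusted p = 0.284). Among all genes the calls went from 1788 to 372 in that class and from 351 to 25 in the neither class. In the neither class 0 of the 9 were called with that term. All 9 had an unadjusted p under 0.05, as did 1503 of 16736 genes in all (edgeR). The slopes of the 9 were then between 0.13 and 0.25. The H2-Ea-ps class, with PancO2 anti-PD-1 71 included, kept 0 calls, with slopes between 0.13 and 0.32.

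The 9 genes followed each other closely. Over 36 pairs of genes the median r of log2 CPM was 0.939 in the Cp class (lowest 0.850, B2m with Nlrc5) and 0.909 in the neither class (lowest 0.751, B2m with Psmb10), each over 12 libraries that also share their depth. The H2-Ea-ps class gave a median of 0.839 and a lowest value of -0.664, H2-K1 with B2m, which PancO2 anti-PD-1 71 set: without it the lowest was 0.0560, H2-D1 with Nlrc5, and the median 0.749 over 11 libraries. Among 11332 genes with a mean of at least 5 CPM, those most like the mean of the 9 over 36 libraries centred on their class were Igtp (r = 0.967), Irgm2 (0.954), Psme1 (0.947), Gm12250 (0.941) and Irgm1 (0.938). Igtp, Irgm2 and Irgm1 encode interferon-inducible GTPases and Psme1 the alpha subunit of the PA28 proteasome activator. Their slopes on Ifng in the Cp class were 0.78 ± 0.08 for Igtp, 0.64 ± 0.06 for Irgm2, 0.25 ± 0.03 for Psme1, 0.82 ± 0.10 for Gm12250 and 0.59 ± 0.06 for Irgm1 (edgeR adjusted p at most 0.000642). These 5 genes were picked for their likeness to the 9 in the same libraries, so that their rise is no separate result. In the H2-Ea-ps class, with PancO2 anti-PD-1 71 included, none of the 5 was called (smallest edgeR adjusted p = 0.279, Irgm1). Gm12250 was at 23.4 to 193 CPM and Igtp at 91.4 to 699 CPM in the Cp class. Without PancO2 anti-PD-1 71, Igtp, Irgm2 and Gm12250 stayed among the 5 most like genes.

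Other genes of the pathway were read from lists chosen with earlier results known. In the H2-Ea-ps class they were read with PancO2 anti-PD-1 71 included. There 8 genes in all were called by edgeR, against 45 without that library. Of 15 other class I genes 9 rose with Ifng in the Cp class, 8 of 13 tested in the neither class and 0 of 15 in the H2-Ea-ps class (edgeR, 1 at an unadjusted p under 0.05), and 0 fell. H2-Q4, H2-T22, H2-T23 and H2-Q6 had the highest levels, and in the Cp class their slopes were 0.33 ± 0.04, 0.42 ± 0.07, 0.52 ± 0.06 and 0.28 ± 0.07. H2-T23 encodes the Qa-1 heavy chain, whose peptides NK cell receptors read. These genes are close copies of each other, and how reads were split between them is uncertain.

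Interferon gamma signalling genes rose for 8 of 10 in the Cp class and 5 of 10 in the neither class, with 0 of 10 called in the H2-Ea-ps class (edgeR, 3 at an unadjusted p under 0.05), and 0 fell. Irf1, a transcription factor induced by interferon gamma, had slopes of 0.47 ± 0.05, 0.22 ± 0.02 and 0.36 ± 0.09 in the Cp, neither and H2-Ea-ps classes, and its levels ran from 120.1 to 381 CPM in the Cp class. Jak1, a kinase of the receptor, had slopes of 0.01 ± 0.03, 0.01 ± 0.02 and 0.05 ± 0.05 and was called in no class. Jak2 was called in the Cp class alone (0.32 ± 0.06, edgeR adjusted p = 0.00532), and its slopes were 0.07 ± 0.02 in the neither class and 0.12 ± 0.06 in the H2-Ea-ps class.

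Most chaperones of peptide loading did not follow Ifng. Of 7 genes for loading and trimming 2 rose in the Cp class, 1 in the neither class and 0 in the H2-Ea-ps class (edgeR, 1 at an unadjusted p under 0.05). Calr and Canx, which encode lectin chaperones, Pdia3, a disulfide isomerase, and Sec61a1, a channel subunit, had slopes between -0.04 and -0.00049 in the Cp class, and none of the 4 was called in any class. Proteasome genes outside the 9 rose for 3 of 6 in the Cp class (Psme1, Psme2 and Psmb5), 2 of 6 in the neither class (Psme1 and Psme2) and 0 of 6 in the H2-Ea-ps class (edgeR, 1 at an unadjusted p under 0.05). Psme2, the beta subunit of PA28, had slopes of 0.27 ± 0.04, 0.12 ± 0.03 and 0.23 ± 0.11. Psmb5 had 0.12 ± 0.03 in the Cp class, below the 0.38 ± 0.05 of Psmb8, while Psmb6 and Psmb7 had 0.05 ± 0.02 and 0.06 ± 0.03 and were not called.

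The labelled design asks whether the models differ under control IgG and whether an antibody changes a tumour. Since H2-Ea-ps contradicted the labelled strain in 16 of 36 libraries, these comparisons are of libraries as labelled. Whether labels were exchanged between libraries was not tested, and if they were, the comparisons say nothing of models or antibodies. The labelled groups overlapped for H2-K1 and Psmb8. H2-K1 was at 1503, 1319, 1512 and 670 CPM in PancO2 IgG and at 1579, 2736, 735 and 295 CPM in PancO2 anti-PD-1. In MC38 IgG it was at 1409.7, 649, 670 and 2747 CPM, and in CT26 IgG at 550.1, 1086, 752 and 1259.7 CPM. Psmb8 had means of 142 ± 108, 114 ± 35.3 and 128 ± 34.5 CPM (SD, n = 4) in the IgG groups of MC38, CT26 and PancO2. The highest library for Psmb8 was of the Cp class in each of the 9 groups.

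None of the 9 genes passed the edgeR test in any of the 9 labelled comparisons, and none reached an unadjusted p under 0.05. Among the IgG groups, 0% of 16510 genes were called in PancO2 against MC38, in PancO2 against CT26 and in CT26 against MC38, and the log2 fold changes of the 9 genes ran from -0.33 to 0.05, from 0.04 to 0.60 and from -0.58 to -0.14, with SE from 0.25 to 0.46. Against IgG of the same model, 0% of 16323 genes were called in MC38 for anti-CTLA4 (the 9 genes at -0.03 to 0.31) and for anti-PD-1 (-0.16 to 0.10), 0% of 16285 in CT26 (0.04 to 0.49 and -0.20 to 0.11), and 0% of 16410 in PancO2 (-0.12 to 0.23 and -0.08 to 0.63). SE were between 0.27 and 0.69 there. Between 25 and 912 genes had an unadjusted p under 0.05. DESeq2 called at most 2 genes in a comparison and limma-voom 0, and neither called any of the 9. Leaving out any library, PancO2 anti-PD-1 71 among them, gave 0 calls by edgeR as well. Comparisons within a model share their IgG libraries.

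With class as a term and all 36 libraries, anti-CTLA4 against IgG gave log2 fold changes of the 9 genes from -0.08 to 0.02 (SE 0.13 to 0.22) and anti-PD-1 against IgG from -0.36 to -0.03 (SE 0.13 to 0.23). In both, 0% of 17213 genes were called. For anti-PD-1 all 9 genes were below IgG and 1 had an unadjusted p under 0.05, as did 781 genes in all (smallest edgeR adjusted p of the 9 = 0.942). Since the 9 genes followed each other closely, their shared direction is not 9 separate results. DESeq2 and limma-voom called 0 of the 9 in both.

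**Figure D5:**
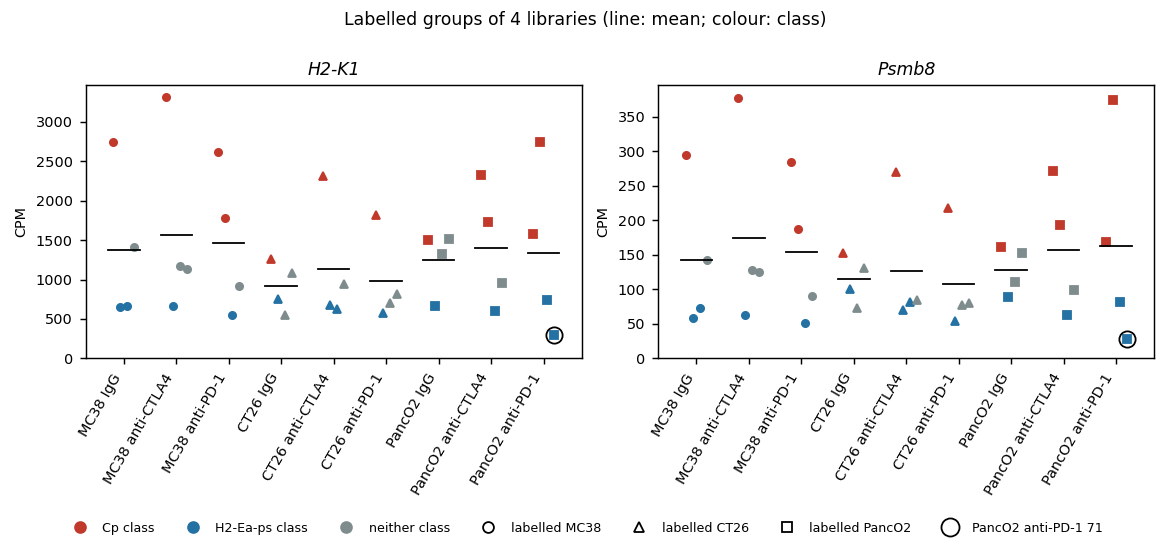
CPM of H2-K1 and Psmb8 in the 9 labelled groups of 4 libraries; points are libraries, colour is the class, shape the labelled model and the line the group mean. For Psmb8 the highest library of each group is of the Cp class, while the group means lie between 107 and 174 CPM.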

How the data were processed

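Total RNA of whole tumours was made into polyA libraries (TruSeq V2), 1 per mouse. According to the submitters' processing notes, FastQC 0.11.5, Bowtie2, HTSeq 07.2 and the mm10 genome were used; the annotation release and the strand setting are not given in the sources used here. The authors deposited raw counts per gene in 1 table, whose 5 summary lines (44.8% to 86.5% of reads) were left out. CPM were computed over the 37417 genes. No pair of libraries agreed within sampling noise (smallest chi-square per degree of freedom 7.52). Replicates were separate mice.

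The 9 genes measured, the lists and the classes were chosen with earlier results of these data known. Named genes are the listed genes, the genes of the axis and classes, the constitutive subunits, up to 4 genes of each list with the highest mean CPM and the 5 most like genes. A gene that this rule also names is not reported here.

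Tests used edgeR 4.0.16 (quasi-likelihood, TMM, filterByExpr) in R 4.3.3, with Benjamini-Hochberg adjustment at 0.05 over all genes tested. DESeq2 1.42.0, limma 3.58.1 (voom), other size factors and filters, a prior count of 0.5 instead of 2, terms for Ptprc or class, other class thresholds and each library left out were alternatives. Correlations used 100000 permutations (Python 3.11.15, numpy 2.4.6). The tests were tried on simulated data.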

Additional observations from a re-analysis of the deposited data

Results flagged for a closer look

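In 6 of 81 gene and group combinations of 4 libraries, 1 library lay farther from the others than Dixon's 95% limit, a ratio of 0.829 of gap to range. For values of 1 population chance flags about 1 in 20 groups. Each labelled group mixed classes, and the Cp class had the highest median of every gene, so that this rate need not hold here. All 6 were the highest library of their labelled group, and all belonged to the Cp class. B2m was at 4378 CPM in MC38 IgG 7, where the rest of that group ran from 1728 to 1934 CPM. MC38 anti-CTLA4 8 had 4843 CPM of B2m (others 1436 to 1937 CPM), 480.5 CPM of Tap1 (129.6 to 166.9 CPM) and 145.6 CPM of Tap2 (68.53 to 75.22 CPM). Psmb8 was at 269.4 CPM in CT26 anti-CTLA4 36, against 70.18 to 84.27 CPM, and at 217.1 CPM in CT26 anti-PD-1 46, against 53.84 to 80.7 CPM.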

How the results depend on the processing

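Of the counts of genes called or without overlap, 479 values under an alternative stayed within 1.5 times the value reported and 14 did not. Most of these counts were 0 in the main setting, and 0 against 0 was taken as unchanged. The total therefore says little of the positive calls. The other values were slopes of single genes and medians of the ratio of H2-K1 to H2-D1 with a library left out. Of these, 603 were unchanged. A slope was unchanged if it kept its direction and side of the threshold, a median if it moved by less than the SD of the ratio. Among the slopes 23 lost the call and 4 gained one, and none turned its direction. With a term for Ptprc the calls on Ifng went from 9 to 5 in the Cp class and from 9 to 0 in the neither class, and without libraries under 5 Ifng counts, chosen after seeing the data, to 2 in the neither class. DESeq2 gave 1 call in the H2-Ea-ps class. Leaving out a library gave 9 calls each time in the Cp class, 8 (B2m lost without MC38 IgG 2) to 9 in the neither class and 0 to 3 in the H2-Ea-ps class, and 0 to 1 for slopes that differ between classes, the upper values without PancO2 anti-PD-1 71. By Pearson's r, correlations in the neither class passed for 4 genes with a prior count of 0.5 and for 2 without the libraries farthest from the median of Ifng. By Spearman's rho 8 and 0 passed in these settings. Genes without overlap between the Cp and neither classes numbered 1 with TMM and 1 with DESeq2 size factors, and 2 to 3 when a library was left out. Thresholds of H2-Ea-ps above 1 CPM and Cp above 300 CPM moved 10 libraries to another class. Only MC38 anti-CTLA4 11 and CT26 anti-PD-1 40 then stayed in the neither class, so that counts against it do not compare with those of 12 libraries. Under these thresholds 0 genes were without overlap for Cp against neither, 0 for Cp against H2-Ea-ps and 1 for H2-Ea-ps against neither. That last pair had 0 to 1 when a library was left out (H2-D1, without PancO2 anti-PD-1 71), and Cp against H2-Ea-ps had 3 to 4. In a fit of all 36 libraries, 49 genes were called for PancO2 anti-PD-1 against IgG, none of them among the 9. Where no value above shows it, the cause was not tested. Low counts limit the precision of the Ifng axis: 5 libraries had 0 to 4 counts of it. No paired analysis was possible because each mouse number belongs to 1 library.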
